A study of Homo sapiens with 6 samples.

Results

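Galanin and 9 other genes of the peptide secretory pathway were followed in HEK293 cells with and without the mitochondrial E3 ubiquitin ligase MUL1. The 10 genes, of 57123 in the count tables, were the galanin precursor GAL, the neuropeptide precursors NPY and PENK, the granins and granin-like genes VGF, CHGA, CHGB, SCG2, SCG3 and SCG5, and the prohormone convertase PCSK1. They were chosen by name with the measured difference between the genotypes already known, so that every value given for them in that comparison is a description and carries no test. GAL had 435 to 547 counts in the WT libraries and 0 counts in all libraries labelled MUL1(-/-). CHGB was 2.07-fold higher, SCG2 2.47-fold higher and PCSK1 2.37-fold higher in the libraries labelled MUL1(-/-), from low levels, and VGF, CHGA, SCG3, SCG5 and NPY were 1.31-fold to 1.53-fold higher. PENK was at 3 counts or fewer in 5 of 6 libraries.

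Neuropeptides and peptide hormones are made as larger precursors that enter the secretory pathway, are sorted into dense-core vesicles and are cut there, mostly at pairs of basic residues, by prohormone convertases. Granins are acidic proteins of the same vesicles, where they help to pack the cargo and are themselves cut into peptides. This regulated pathway is typical of neurons and endocrine cells, whereas HEK293 is a line derived from human embryonic kidney that is known to express a number of neuronal genes.

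Total RNA of HEK293 WT cells (3 libraries) and of HEK293 MUL1(-/-) cells (3 libraries), in which MUL1 had been inactivated with CRISPR-Cas9, was sequenced. Both were grown in the same serum-containing DMEM medium, and no treatment or time point separated them. The study used 2 independent clones of each genotype for its protein blots, and which clones gave the RNA is not given in the sources used here, so that the genotype and a difference between clones cannot be told apart. The labels do not state that the 3 libraries of a genotype came from separate cultures, and any p-value then measures the spread between these libraries, which may be technical. MUL1 itself had 1962, 2146 and 2396 counts in WT replicates 1 to 3 and 2366, 2084 and 2378 in MUL1(-/-) replicates 1 to 3. The log2 fold change of MUL1 was 0.14 (SE 0.10, edgeR adjusted p = 0.321), and since an edit of a few bases need not lower the transcript, this count gave no check of the labels.

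Counts summed over genes were 127015142 to 142803296 in WT and 121917971 to 122441959 in the libraries labelled MUL1(-/-), where a read that touched several exon bins was counted in each. Values are given as CPM, the counts of a gene scaled to the total over genes with TMM factors, and a gene at 3 counts or fewer, about 0.0242 CPM in these libraries, is not told from absent. Summed CPM of the neuroendocrine and neuronal markers was 916 to 958 in WT and 839 to 881 in the libraries labelled MUL1(-/-), with TH at 3 counts or fewer in all 6. UCHL1 made up most of that sum (703 ± 16.5 and 710 ± 5.22 CPM, SD, n = 3). ENO2 fell from 147 ± 4.04 to 70.1 ± 14.9 CPM (edgeR adjusted p = 4.93e-06), while ELAVL3 rose from 0.103 ± 0.0368 to 0.287 ± 0.0811 CPM (edgeR adjusted p = 0.00422) and SYP was at 7.91 ± 0.757 and 11.8 ± 0.865 CPM (edgeR adjusted p = 0.000459). SNAP25 (log2 fold change -0.53, edgeR adjusted p = 0.00444) and INSM1 (-0.31, edgeR adjusted p = 0.039) were lower. Of the 14 markers, 1 passed as higher and 1 as lower, at an adjusted p under 0.05 and a log2 fold change above 1 in size. A further 7 did not pass and 5 were not tested. Summed CPM of the epithelial and kidney markers was 1337 to 1517 and 991 to 1136, that of the fibroblast markers 27.8 to 35.1 and 38.8 to 52.0, and that of the glial markers 13.4 to 16.3 and 14.4 to 18.3. The blood markers summed to 1.65 to 2.10 and 2.77 to 2.97 CPM and the endothelial markers to 0.0952 to 0.247 and 0.460 to 0.711 CPM. The part of these shifts in the values below was not tested, and fewer cells of a type and less RNA per cell cannot be told apart in bulk RNA.

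The GAL transcript encodes a precursor from which galanin, a neuropeptide with actions on feeding, pain and hormone release, is cut out at basic residues. The coding stretch that runs from the first to the second lysine-arginine codon pair is shown because it is the part that makes the peptide, and because reads on both exons that hold it were counted in WT alone. It was read from the GENCODE 29 transcript of GAL, with 30 codons between the capitals, which mark the 2 pairs. It lies on the plus strand of GRCh38 between chr11:68685603-68688069, split over exons 3 and 4.
GAL: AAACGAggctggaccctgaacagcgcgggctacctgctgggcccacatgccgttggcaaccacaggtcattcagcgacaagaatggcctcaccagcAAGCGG

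RefSeq promoters (GRCh38.p14) of 6 of the 10 genes were at hand, namely NPY, VGF, CHGA, SCG3, SCG5 and PCSK1. GAL, CHGB, SCG2 and PENK were not matched. The cAMP response element, TGACGTCA, which reads the same on both strands, stood within 250 bases before the start of 3 of the 6 genes (VGF, CHGA and PCSK1) and in 1.65% of 35116 promoters. The variant TGACGCA, searched on both strands, stood in the SCG5 promoter and in 2.09% of all promoters. The promoters of NPY and SCG3 held neither. All 6 genes had a higher mean CPM in the libraries labelled MUL1(-/-), a difference known when they were chosen, and a link to the element was not tested. The 4 windows are shown to place the element, which is in capitals.
VGF: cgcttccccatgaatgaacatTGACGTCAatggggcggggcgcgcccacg
CHGA: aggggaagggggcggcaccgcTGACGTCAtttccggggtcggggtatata
PCSK1: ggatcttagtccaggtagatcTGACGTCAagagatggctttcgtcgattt
SCG5: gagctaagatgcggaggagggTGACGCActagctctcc
These windows lie at chr7:101165620-101165669 (minus strand), chr14:92923075-92923124 (plus strand), chr5:96433297-96433346 (minus strand) and chr15:32641672-32641709 (plus strand). The first base of the element was 79 bases before the RefSeq start in VGF, 54 in CHGA, 77 in PCSK1 and 17 in SCG5. The windows of CHGA, PCSK1 and SCG5 overlap the gene spans given below, which begin at other starts. One part of the RE1 element, which the repressor REST is known to bind, was searched as GGACAGC on both strands and stood in the promoters of VGF and PCSK1 and in 4.76% of all promoters. The other part, TTCAGCACC, stood in none of the 7 promoters of these 6 genes and in 0.288% of all promoters. These matches describe letters in a window and were not tested for use.

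GAL (ENSG00000069482, chr11:68683779-68691175, plus strand) showed the largest difference of the 10 genes. It had 547, 435 and 474 counts in WT replicates 1 to 3, or 4.30, 3.08 and 3.76 CPM (mean 3.71 ± 0.616, SD, n = 3). It had 0 counts in each of the 3 libraries labelled MUL1(-/-). With the floor of 3 counts per library, GAL was at least 153-fold lower in the libraries labelled MUL1(-/-) on sums over its bins, and the groups did not overlap. A read that spans bins adds to each of them, so these sums exceed the number of reads. In the most counted bin alone, with 71 to 95 counts in WT, the bound was at least 25.6-fold.

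The absence of counts ran along the whole gene. The tables divide GAL into 9 exon bins, of which 7 held 50 to 95 counts in each WT library. Bin 2, upstream of these, held 2 counts in WT replicate 3 and none elsewhere, and bin 1 held none. The exons that encode galanin had 68, 59 and 63 counts (exon 3) and 81, 62 and 73 counts (exon 4) in WT replicates 1 to 3. In the libraries labelled MUL1(-/-) all 9 bins were at 0, so no shortened GAL transcript was seen at this depth.

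**Figure D1:**
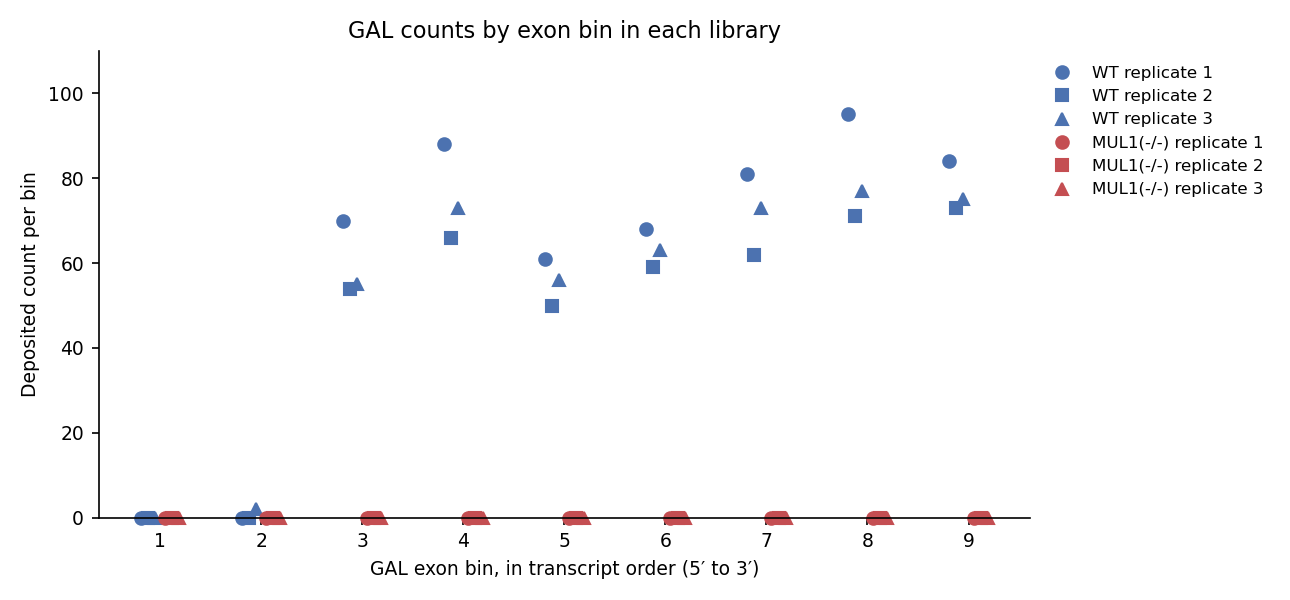
Deposited counts (vertical axis) in each of the 9 exon bins of GAL in transcript order (horizontal axis), with WT libraries in blue, libraries labelled MUL1(-/-) in red and replicates as circles, squares and triangles. Bins 3 to 9 sit between 50 and 95 in every WT library, and all 9 bins lie at 0 in every library labelled MUL1(-/-).

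The genes around GAL were measured in both genotypes. Of its 5 nearest tested genes on each side, 0 of 10 passed the call (edgeR adjusted p under 0.05 and a log2 fold change beyond 1 in size), 0 by DESeq2, and 2 were at an adjusted p under 0.05 without the threshold on size (2 also at an unadjusted p under 0.05). Their log2 fold changes ran from -0.41 to 0.57 with a median of -0.023. The 2 were C11orf24, at 21.4 CPM in WT and 31.8 in the libraries labelled MUL1(-/-) (log2 fold change 0.57, edgeR adjusted p = 4.88e-05), named after its values were seen, and TESMIN. TESMIN, the next tested gene after GAL, had a log2 fold change of -0.34 (SE 0.12, edgeR adjusted p = 0.0462), and the next gene before GAL, ENSG00000260808, one of 0.037 (SE 0.12, edgeR adjusted p = 0.836). Over all 25125 tested genes 4.23% passed the call as higher and 3.87% as lower, and 4716 rose and 4706 fell by the adjusted p alone. At such shares a count of 0 in 10 genes is common, so nothing is read from it.

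The 3 tested genes whose pattern over the 6 libraries was most like that of GAL, by the Euclidean distance of log2 CPM less each gene's mean, were GSTP1 (distance 0.533), PYCR1 (0.696) and SERP2 (0.953). GSTP1, a glutathione transferase, was at 70.0 ± 5.57 CPM in WT and 0.266 ± 0.0472 in the libraries labelled MUL1(-/-) (SD, n = 3). PYCR1, an enzyme of proline synthesis, was at 105 ± 14.6 and 0.526 ± 0.112 CPM, and SERP2 at 3.73 ± 1.15 and 0.00530 ± 0.00459 CPM. GSTP1 and PYCR1 started from far higher levels than GAL, so that whether GAL kept as small a share of its WT level cannot be seen at this depth. GAL had 0 counts in the libraries labelled MUL1(-/-), so its log2 CPM there was set by the prior count of 2. The distances to GAL, and which genes came nearest, therefore depend on that setting, and nothing is read from them.

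NPY (ENSG00000122585, chr7:24284163-24291865, plus strand) encodes neuropeptide Y, an abundant peptide of the brain and sympathetic nerves. It had 18, 34 and 24 counts in WT replicates 1 to 3 and 25, 42 and 27 in MUL1(-/-) replicates 1 to 3. The mean was 0.191 ± 0.0493 CPM in WT and 0.250 ± 0.0745 in the libraries labelled MUL1(-/-) (SD, n = 3), with a log2 fold change of 0.38 (SE 0.32). The groups overlapped, and replicate 2 was the highest library of each genotype. Without MUL1(-/-) replicate 2 the log2 fold change was 0.13.

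PENK, the precursor of the enkephalins, had 1 count in WT replicate 2, 6 counts in MUL1(-/-) replicate 3 and 0 in the other 4 libraries. All 7 counts fell in bins that overlap another gene. No fold is given for it, and it did not pass the filter on low counts, so that 9 of the 10 genes entered the fit.

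VGF (ENSG00000128564, chr7:101162509-101165593, minus strand), a granin-like precursor induced by nerve growth factor, had the highest summed CPM per kilobase of exon of the other 9 genes in both genotypes. It had 222, 237 and 262 counts in WT replicates 1 to 3 and 352, 384 and 257 in MUL1(-/-) replicates 1 to 3. The mean was 1.83 ± 0.216 CPM in WT and 2.64 ± 0.512 in the libraries labelled MUL1(-/-) (SD, n = 3), a log2 fold change of 0.53 (SE 0.16). Replicates 1 and 2 of MUL1(-/-) lay above all WT libraries, while replicate 3, at 2.07 CPM, lay just under WT replicate 3, at 2.08 CPM. With library totals or RLE factors in place of TMM these 2 libraries changed order and the groups no longer overlapped.

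CHGA (ENSG00000100604, chr14:92923080-92935293, plus strand) encodes chromogranin A, the founding member of the granins and a marker of neuroendocrine cells. Its counts were 98, 124 and 112 in WT replicates 1 to 3 and 188, 155 and 132 in MUL1(-/-) replicates 1 to 3. The mean was 0.845 ± 0.0647 CPM and 1.26 ± 0.211 CPM (SD, n = 3), a log2 fold change of 0.58 (SE 0.17), and the groups did not overlap.

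CHGB (ENSG00000089199, chr20:5911430-5925361, plus strand), chromogranin B, is a close relative found in the same vesicles. It had 78, 97 and 80 counts in WT replicates 1 to 3 and 168, 195 and 139 in MUL1(-/-) replicates 1 to 3. The mean was 0.645 ± 0.0370 CPM in WT and 1.34 ± 0.218 in the libraries labelled MUL1(-/-) (SD, n = 3), and the log2 fold change was 1.05 (SE 0.18). The lowest library labelled MUL1(-/-), at 1.12 CPM, lay well above the highest WT library, at 0.686 CPM.

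SCG2 (ENSG00000171951, chr2:223596940-223602503, minus strand), secretogranin II, is the precursor of secretoneurin. Its counts were 23, 17 and 6 in WT replicates 1 to 3 and 42, 46 and 20 in MUL1(-/-) replicates 1 to 3. The mean was 0.116 ± 0.0668 and 0.287 ± 0.110 CPM (SD, n = 3), a log2 fold change of 1.29 (SE 0.42). Replicate 3 was the lowest of each genotype, and MUL1(-/-) replicate 3 lay below WT replicate 1, so the groups overlapped. Without WT replicate 3 the log2 fold change was 0.93.

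SCG3 (ENSG00000104112, chr15:51681353-51721031, plus strand), secretogranin III, binds chromogranin A and helps to hold it at the vesicle membrane. It had 94, 112 and 155 counts in WT replicates 1 to 3 and 200, 194 and 136 in MUL1(-/-) replicates 1 to 3. The mean was 0.920 ± 0.269 and 1.41 ± 0.271 CPM (SD, n = 3), a log2 fold change of 0.62 (SE 0.21). WT replicate 3 lay above MUL1(-/-) replicate 3, and the groups overlapped. The 3 tested genes nearest to SCG3 in pattern were C6orf58 (distance 0.219), the zinc finger gene ZFP2 (0.222) and PPP2CA-DT (0.229), of which ZFP2 was at 1.44 ± 0.449 CPM in WT and 1.97 ± 0.390 in the libraries labelled MUL1(-/-) (SD, n = 3).

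SCG5 (ENSG00000166922, chr15:32641676-32697098, plus strand) encodes 7B2, the chaperone of the convertase PCSK2. Its counts were 142, 169 and 121 in WT replicates 1 to 3 and 202, 169 and 165 in MUL1(-/-) replicates 1 to 3. The mean was 1.09 ± 0.119 and 1.43 ± 0.148 CPM (SD, n = 3), a log2 fold change of 0.38 (SE 0.16), and the groups did not overlap. In its most counted bin alone, with 17 to 34 counts in WT and 21 to 24 in the libraries labelled MUL1(-/-), the log2 fold change was -0.073.

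PCSK1 (ENSG00000175426, chr5:96390415-96434143, minus strand) encodes the convertase PC1/3, which makes the first cuts in many precursors. It had 18, 24 and 17 counts in WT replicates 1 to 3 and 74, 36 and 23 in MUL1(-/-) replicates 1 to 3. The mean was 0.149 ± 0.0184 and 0.353 ± 0.207 CPM (SD, n = 3), a log2 fold change of 1.24 (SE 0.38). The groups did not overlap, but MUL1(-/-) replicate 1 alone set much of the mean, and without it the log2 fold change was 0.67.

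**Figure D2:**
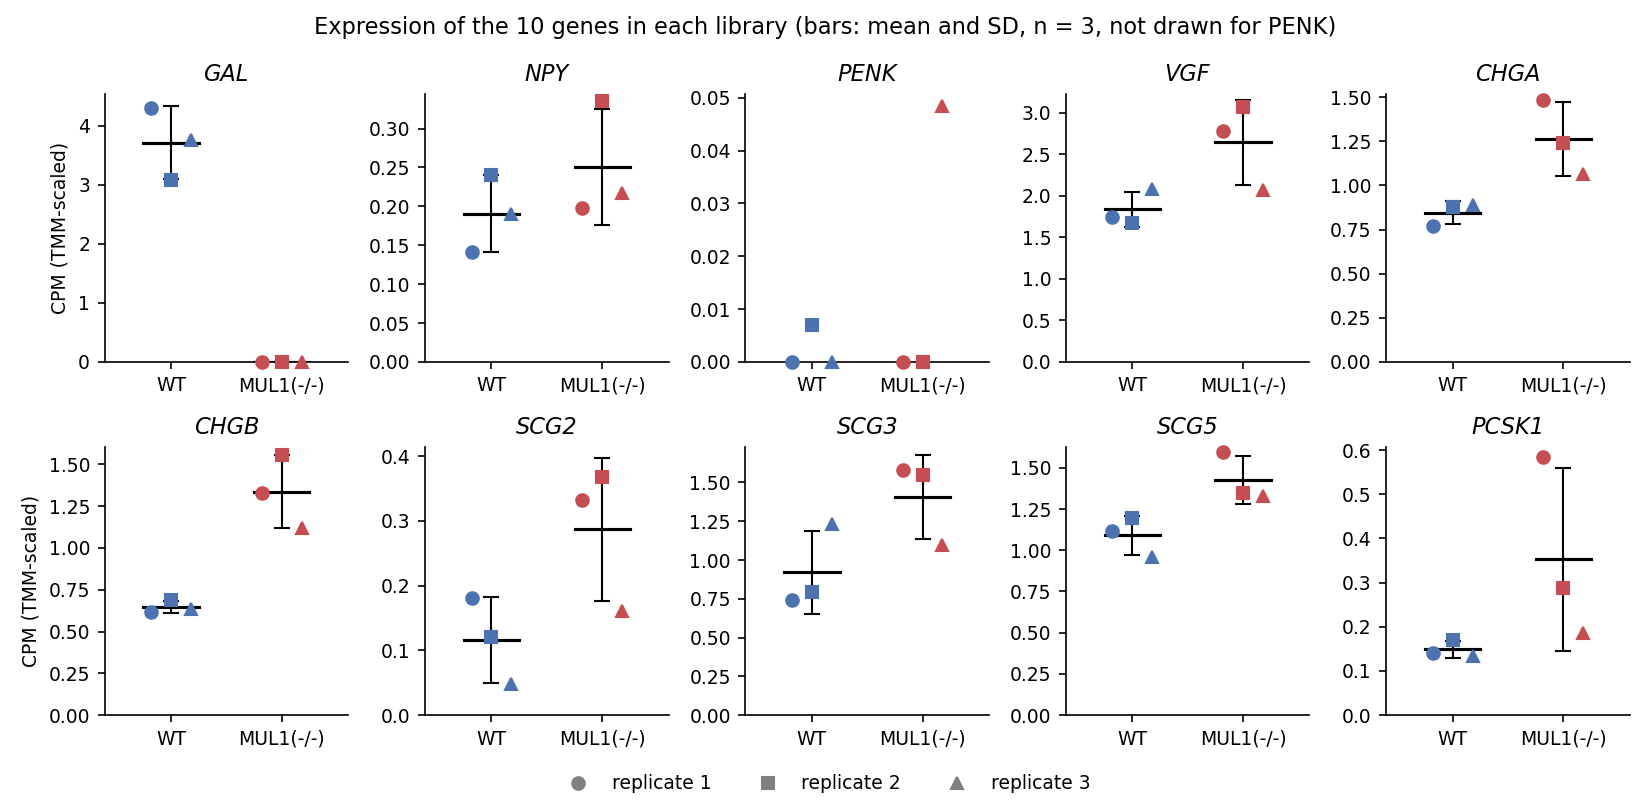
TMM-scaled CPM (vertical axes, from 0 and different in each panel) of the 10 genes in the 3 WT libraries (blue) and the 3 libraries labelled MUL1(-/-) (red), with the mean and SD as black bars, not drawn for PENK. GAL lies at 3.08 to 4.30 CPM in WT and at 0 in the libraries labelled MUL1(-/-), while CHGB lies above every WT library and MUL1(-/-) replicate 3 (triangle) is the lowest of its genotype in most panels.

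The 8 genes other than GAL and PENK all had a higher mean in the libraries labelled MUL1(-/-), which the choice of the genes had used. Of the 9 genes tested, 3 passed the call as higher (CHGB, SCG2 and PCSK1), where 4.23% of all 25125 tested genes did, and 1 as lower (GAL), where 3.87% did. Values of the genotypes did not overlap in 4 of the 10 genes as higher (CHGA, CHGB, SCG5 and PCSK1), against 24.1% of all tested genes, and in 1 as lower, against 24.4%. Among the 10451 tested genes with a mean of 0.1 to 3 CPM, the range that holds all 9, 7.5% passed as higher and 5.92% as lower, and values did not overlap in 20.2% and 19.9%. Nothing is read from these counts, since the same contrast chose the genes. GAL passed with each library left out in turn, whereas 1 to 3 genes then passed as higher. CHGB no longer passed without MUL1(-/-) replicate 2 (log2 fold change 0.94). With the most counted bin of each gene CHGB did not pass (0.83), PCSK1 was too low to be tested, and CHGA passed (1.48). That bin was picked on the sum over all 6 libraries, and for CHGA it was not the most counted one in WT, so this pass carries no weight. SCG2 did not pass without WT replicate 2 (1.31) or 3 (0.93) or without MUL1(-/-) replicate 1 (1.19) or 2 (1.09). PCSK1 did not pass without WT replicate 1 (1.20) or 3 (1.17) or without MUL1(-/-) replicate 1 (0.67).

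MUL1(-/-) replicate 3 was the lowest library of its genotype for 7 of these 8 genes, all but NPY. Its total over genes, 121917971, was close to the 122441959 and 122305055 of the other two. Without it, the values of the genotypes did not overlap in 7 genes as higher in place of 4. The log2 fold changes then ran from 0.43 for SCG5 to 1.58 for SCG2.

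**Figure D3:**
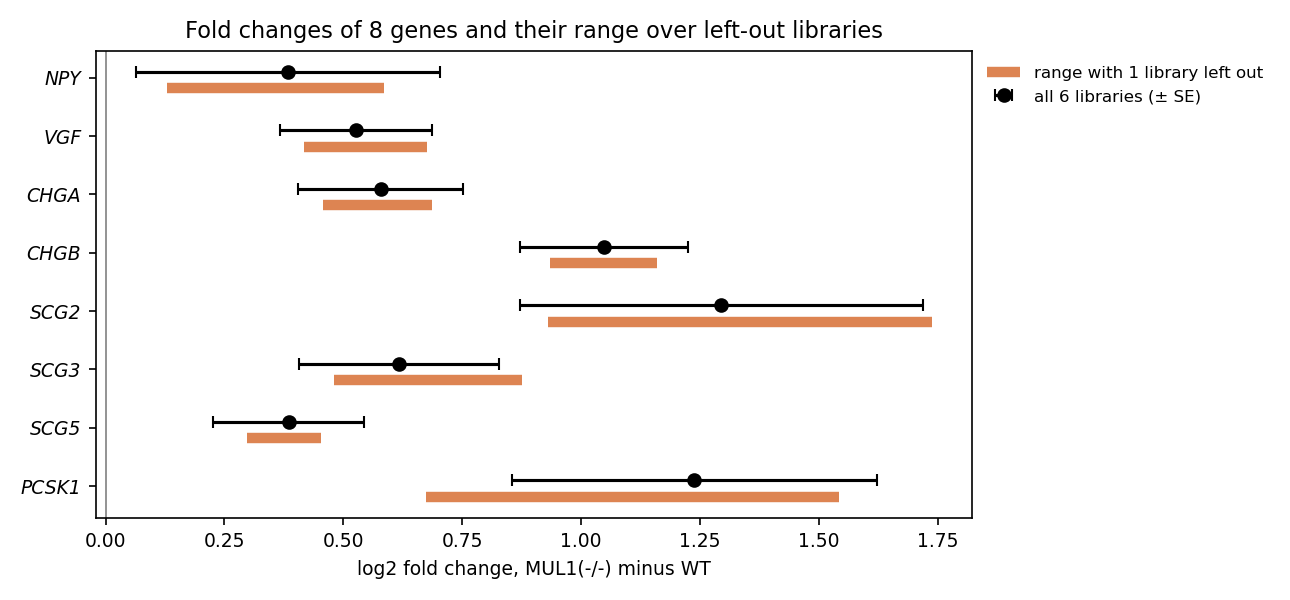
Log2 fold change of MUL1(-/-) against WT (horizontal axis) for 8 of the 10 genes, as the value over all 6 libraries with its SE (black) and as the range when 1 library at a time was left out (orange). All ranges lie above 0, and those of SCG2 (0.93 to 1.74) and PCSK1 (0.67 to 1.54) are the widest.

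Per kilobase of exon, GAL had the highest summed CPM of the 10 genes in WT. A read adds to each bin that it touches, so a gene cut into short bins gains in this measure. The order below is one of summed counts and may differ from that of the transcripts. In the libraries labelled MUL1(-/-) GAL lay below the 8 genes other than PENK, whose range overlapped that of GAL at 0. In WT it stood at 2.86 ± 0.474 CPM per kb (SD, n = 3), followed by VGF at 0.678 ± 0.0797 and SCG5 at 0.497 ± 0.0544, and the ranges of these 3 did not overlap. SCG3 (0.278 ± 0.0812), CHGA (0.273 ± 0.0209) and NPY (0.207 ± 0.0536) came next and each overlapped its neighbour. CHGB (0.142 ± 0.00815) stood apart below them, ahead of SCG2 (0.0428 ± 0.0246) and PCSK1 (0.0280 ± 0.00347), which overlapped. In the libraries labelled MUL1(-/-) VGF led at 0.977 ± 0.189 CPM per kb and SCG5 followed at 0.649 ± 0.0674, without overlap. SCG3 (0.425 ± 0.0816), CHGA (0.407 ± 0.0682), CHGB (0.295 ± 0.0481) and NPY (0.272 ± 0.0809) then overlapped in turn, so that CHGB joined the middle of the order.

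The share of a gene's counts in its most counted bin was compared next. The most counted bin of VGF, of 915 bases, held 42.7% ± 1.5 of its counts in WT and 44.2% ± 3.62 in the libraries labelled MUL1(-/-) (SD, n = 3). That of SCG2, of 1911 bases, held 61.4% ± 19.2 and 69.6% ± 6.82, and that of CHGB, of 1027 bases, 38.4% ± 7.83 and 32.6% ± 1.66. Among the genes with a share in both genotypes CHGA differed most, as its bin 15 of 18, of 482 bases, held 11.6% ± 3.15 of the counts in WT and 21.6% ± 3.20 in the libraries labelled MUL1(-/-). That bin had 9, 13 and 17 counts in WT replicates 1 to 3 and 39, 39 and 25 in MUL1(-/-) replicates 1 to 3, and it gave CHGA a log2 fold change of 1.48 by itself. The most counted bin was taken on the sum over all 6 libraries, so a bin high in 1 genotype could be picked for that reason. Bin 11 of CHGA held 23, 21 and 14 counts in WT replicates 1 to 3 and 29, 19 and 25 in MUL1(-/-) replicates 1 to 3. Bin 15 was also singled out after its values were seen, so its call as higher in that setting carries no weight. The difference in share was not tested.

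The rest of the pathway was followed in 5 lists of 165 genes, of which 121 were tested, 12 rose and 7 fell in the libraries labelled MUL1(-/-) by the edgeR call. By the adjusted p alone 29 rose and 32 fell, where 4716 and 4706 of all 25125 tested genes did. These shares over all genes stand beside the counts by the adjusted p alone in each list below. The median log2 fold change of these 121 genes was 0.049, beside -0.0098 over all tested genes. By the edgeR call 9.92% of them rose and 5.79% fell, where 4.23% and 3.87% of all tested genes did. Among tested genes with a mean of 0.1 to 3 CPM, a range that holds part of the lists, 7.5% and 5.92% did. The lists were chosen with earlier results of these data known. Nothing is therefore read from these shares, and the adjusted p-values of list genes are given as description. Of the 11 receptors of the peptides, 4 were tested, with a median of 0.21. GALR2, a galanin receptor, rose from 0.151 ± 0.0301 to 0.372 ± 0.112 CPM (log2 fold change 1.29, edgeR adjusted p = 0.00415). OPRD1, the delta opioid receptor that binds enkephalins, fell from 2.81 ± 0.479 to 0.588 ± 0.106 CPM (log2 fold change -2.26, edgeR adjusted p = 2.57e-07), with 83.6% of its counts in bins that overlap another gene. Without those bins OPRD1 passed the call as well (log2 fold change -2.05, edgeR adjusted p = 0.000957). GALR3 was at 0.125 ± 0.0371 and 0.175 ± 0.122 CPM and did not pass.

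Of 60 other peptide precursors, 31 were tested, 2 rose (GNRH2 and TAC3) and 1 fell (TRH), or 7 and 2 by the adjusted p alone, with a median log2 fold change of 0.079. GNRH2, a gonadotropin-releasing hormone, went from 0.419 ± 0.0872 to 1.06 ± 0.249 CPM and TAC3, the neurokinin B precursor, from 0.221 ± 0.0671 to 0.575 ± 0.141 CPM. TRH, the thyrotropin-releasing hormone precursor, was at 0.139 ± 0.0696 and 0.0532 ± 0.0198 CPM (edgeR adjusted p = 0.0311). Its call was lost with the replicate block (edgeR adjusted p = 0.0697), by DESeq2 (adjusted p = 0.106), without WT replicate 2 (log2 fold change -0.88) and without any 1 library labelled MUL1(-/-) (-1.63 to -1.11). The highest mean CPM was that of NUCB2, NMU and ADM, precursors of nesfatin, neuromedin U and adrenomedullin, at 73.9, 31.9 and 14.2 CPM in WT and 74.6, 37.9 and 18.9 in the libraries labelled MUL1(-/-), and none of them passed the call.

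Of 13 genes for the processing of precursors, all were tested, with a median log2 fold change of 0.33, and 1 rose and 1 fell, or 7 and 2 by the adjusted p alone. PCSK2, the partner convertase of PCSK1, rose from 0.0850 ± 0.0307 to 0.247 ± 0.157 CPM (log2 fold change 1.54, edgeR adjusted p = 0.0158), a call that was lost without WT replicate 2 (1.25) or MUL1(-/-) replicate 1 (0.90). PCSK4, a convertase known from germ cells, fell from 6.76 ± 1.03 to 2.27 ± 0.191 CPM (log2 fold change -1.58, edgeR adjusted p = 4.75e-07). The abundant enzymes PAM, CPD and CPE, which trim and amidate the cut peptides, were at 131, 90.8 and 95.1 CPM in WT and 142, 161 and 125 in the libraries labelled MUL1(-/-), and none passed the call. CPD and CPE missed it on size alone (log2 fold change 0.82 and 0.39, edgeR adjusted p = 1.29e-06 and 0.000893), while PAM had an edgeR adjusted p of 0.298.

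Of 49 genes of dense-core vesicle biogenesis and release, 46 were tested, 6 rose and 2 fell, and the median log2 fold change was -0.15. By the adjusted p alone 10 genes were higher and 17 lower, where 4716 and 4706 of all 25125 tested genes were. The synaptotagmins SYT1 and SYT11 rose from 8.26 ± 0.390 to 19.9 ± 0.368 CPM and from 4.81 ± 0.216 to 16.1 ± 0.821 CPM, and the complexin CPLX2 from 0.302 ± 0.0475 to 1.48 ± 0.476 CPM. SYT4, RAB3C and PTPRN, named after their values were seen to complete the count, rose as well. CYB561, the cytochrome that supplies electrons inside the vesicle, fell from 12.3 ± 1.43 to 0.384 ± 0.0801 CPM (log2 fold change -5.01, edgeR adjusted p = 9.45e-12), and SYTL5 from 10.0 ± 1.07 to 4.46 ± 0.521 CPM. Without MUL1(-/-) replicate 1, 5 genes of this list fell in place of 2. RAB2A, SNAP23 and PICK1, with the highest mean CPM, did not pass.

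Of 32 neuroendocrine and CREB transcription factors, 27 were tested, with a median log2 fold change of 0.049, and 2 rose and 2 fell, or 4 and 10 by the adjusted p alone. ISL1 rose from 1.92 ± 0.154 to 5.20 ± 0.591 CPM (log2 fold change 1.44, edgeR adjusted p = 8.65e-07) and MYT1 fell from 5.86 ± 0.517 to 2.28 ± 0.376 CPM (log2 fold change -1.36, edgeR adjusted p = 2.50e-06). The immediate early gene EGR1 rose from 6.85 ± 0.598 to 15.2 ± 6.40 CPM, a call lost without MUL1(-/-) replicate 2 (log2 fold change 0.82). NEUROD1 fell from 0.206 ± 0.0577 to 0.0822 ± 0.0574 CPM (edgeR adjusted p = 0.0409), and its call was lost with the replicate block (edgeR adjusted p = 0.0739), by DESeq2 (adjusted p = 0.0724), with library totals, without WT replicate 2 or 3 (log2 fold change -1.37 and -1.08) and without MUL1(-/-) replicate 1 or 3 (-1.57 and -0.83). JUN, SIN3A and CREM, with the highest mean CPM, did not pass.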

How the data were processed

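RNA of 6 HEK293 libraries was analysed, 3 labelled WT and 3 labelled MUL1(-/-). The authors deposited whole-number read counts per exon bin of a flattened annotation, without normalization. The submitters' processing notes name Trimmomatic 0.36, STAR 2.5.2b and GRCh38, and the counting program is not given in the sources used here. Of 11 pairs of bins with equal ends on opposite strands and at least 100 counts, the median ratio of the lower to the higher count was 1, as counting without strand gives, so overlapping genes on opposite strands cannot be told apart.

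Here 597973 bins were summed per gene, and bins of 2031 joined identifiers were assigned by the exons of GENCODE 29, which left 4.37% of counts unassigned. Since a read spanning bins adds to all of them, sums exceed reads, and limits from counts cover counting error only. The fit was edgeR 4.0.16 in R 4.3.3 with TMM, filterByExpr and the quasi-likelihood test over 25125 genes, with Benjamini-Hochberg adjustment. A gene was called at an adjusted p under 0.05 and a log2 fold change above 1 in size. The SE was taken from the fold change and the F statistic. On simulated counts of 25125 genes, 193 of 200 genes changed by a log2 fold change of 2 were recovered with 5 false calls. The simulation gave every gene the same dispersion and held no smaller changes, so it does not give the recovery near the threshold. DESeq2 1.42.0 was an alternative. Prior counts of 0.5 and 5 in place of 2 on log2 CPM were also tried.

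The 10 genes and the lists were chosen with earlier results of these data known. Named are the 10 genes, MUL1, from each list up to 5 called genes by size of change at 1 CPM or more (else by level) and the 3 of highest mean CPM, and the 3 genes nearest in pattern to GAL and SCG3, the genes of at least 1 CPM with the largest changes.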

Additional observations from a re-analysis of the deposited data

How the results depend on the processing

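GAL was the gene called lower among the 10 in every setting. The bound on how much lower it was stood at at least 147-fold to 153-fold with other scalings or with bins that overlap no other gene. It stood at 141-fold to 167-fold with 1 library left out. With the most counted bin it was 25.6-fold, where fewer counts are held by construction and no read is added over several bins. The number of the 10 genes called higher was 3, against 1 with a minimum of 1 CPM in at least 3 libraries, 6 with the adjusted p alone and 1 to 3 with 1 library left out. Values of the genotypes did not overlap as higher in 4 genes, against 4 to 7 with 1 library left out, where values separate more easily. The SCG5 log2 fold change was reversed at -0.073 in the most counted bin, where CHGB also lost the call, PCSK1 was not tested and CHGA gained the call. The bin of CHGA was picked on counts that included the libraries labelled MUL1(-/-), where it was high.

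Over all tested genes 1064 rose and 973 fell, against 331 and 446 with the minimum of 1 CPM and 4716 and 4706 with the adjusted p alone, and 1008 to 1277 and 902 to 1075 with 1 library left out. In the 5 lists 12 rose and 7 fell, against 20 risen with no filter, 5 risen with the minimum of 1 CPM and 29 and 32 with the adjusted p alone, and 12 to 14 and 5 to 8 with 1 library left out. The cause was not tested beyond the fewer or more genes that these settings admit.

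Samples with the same number correlated at -0.0812 to 0.157 in their deviations from the genotype means, and those with different numbers at -0.178 to 0.0996. With 3 libraries per genotype these values cannot tell whether the numbers pair the libraries. With the replicate block 1015 genes rose and 940 fell, 12 and 5 in the lists and 3 and 1 among the 10 genes.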
